A study of Rattus norvegicus with 6 samples.

Results

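The TNF ligand and receptor superfamilies and the TRAF adaptors that act below the receptors were followed in rat lung with and without the aryl hydrocarbon receptor gene Ahr. Members were the entries of the deposited expression table with a Tnfsf, Tnfrsf or Traf symbol that carries a number, together with 12 family genes under other names, such as Tnf, Ltb, Cd40 and Fas. Of 52 matching symbols, 47 reached a value of at least 1 in 3 or more of the 6 libraries, out of 15386 genes that did so among 19828 entries. They comprised 12 ligands, 25 receptors, the 7 TRAF genes and 3 genes named for an interaction with TRAF3, which the symbol pattern also took in. One group was of Sprague-Dawley rats labelled Ahr-KO, and it was compared with wild type (WT) animals of the same strain. Both groups had received Sugen-Hypoxia (SuHx), a VEGF receptor inhibitor combined with low oxygen that produces pulmonary arterial hypertension in rats, and both were labelled day 56. Whole lung was profiled by bulk RNA-seq, with 3 libraries in each group, numbered 0, 1 and 2 as in the table. There was no group without SuHx, and the sources used here state neither the nature of the Ahr allele nor the age of the rats.

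TNF family ligands are mostly trimeric proteins of the cell surface, many of which can be shed, and they act by clustering their receptors. Receptors with a death domain can start apoptosis, and many receptors of the family recruit TRAF proteins that lead to NF-kappaB and MAP kinase signalling. In the lung, TNF itself is best known as an early inflammatory cytokine of macrophages, and much of the rest of the family tunes the survival and co-stimulation of lymphocytes and the building of lymphoid tissue.

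Each value is a normalised, estimated read count, and a difference is Ahr-KO minus WT on the log2(value + 1) scale with its SE. Folds are those differences on the linear scale. A gene was called higher or lower at a Benjamini-Hochberg adjusted p under 0.05 in a limma-trend fit over all tested genes. The estimated depth was 14.2 to 23.6 M reads in Ahr-KO libraries and 12.9 to 21.9 M in WT libraries, so that 1 read was worth a value of 0.806 to 1.40. In both groups library 2 had the fewest reads. As a check of the labels, the AHR target Cyp1a1 stood at 10.5, 0.826 and 1.36 in the Ahr-KO libraries and at 27085, 23512 and 37694 in the WT libraries. Ahr itself was read in both groups (difference 0.08 ± 0.18, adjusted p = 0.81), which is no check of the label as long as the edited part of the gene is not known.

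Of the 47 members, 9 fell in the Ahr-KO lungs, none rose and 38 did not pass the test. Over all tested genes, 6.26% fell, 4.50% rose and 10.8% were called in either direction, and the 9 falls were 19.1% of the members. With equal library totals, 12 members fell and none rose, while the calls over all genes split into 448 higher and 1314 lower, against 692 higher and 963 lower in the reported fit (limma-voom 436 higher and 1290 lower). At an unadjusted p under 0.05, 16 members were lower and 2 higher, and limma-voom called 10 lower and 0 higher. The median difference of the members was -0.35, against 0.01 over all tested genes. In 19 members all 3 Ahr-KO values lay below all 3 WT values, a pattern found in 17.4% of all tested genes, and in 1 member, Traf5, all lay above, as in 17.0% of tested genes. The members that fell were the ligand genes Cd40lg and Tnfsf13b, the receptor genes Tnfrsf13c, Tnfrsf18, Cd27, Tnfrsf14, Tnfrsf1b and Tnfrsf1a, and Traf3ip3. Falls were therefore called in 2 of 12 ligands, 6 of 25 receptors and 1 of the 10 TRAF and TRAF3-interacting genes.

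**Figure D1:**
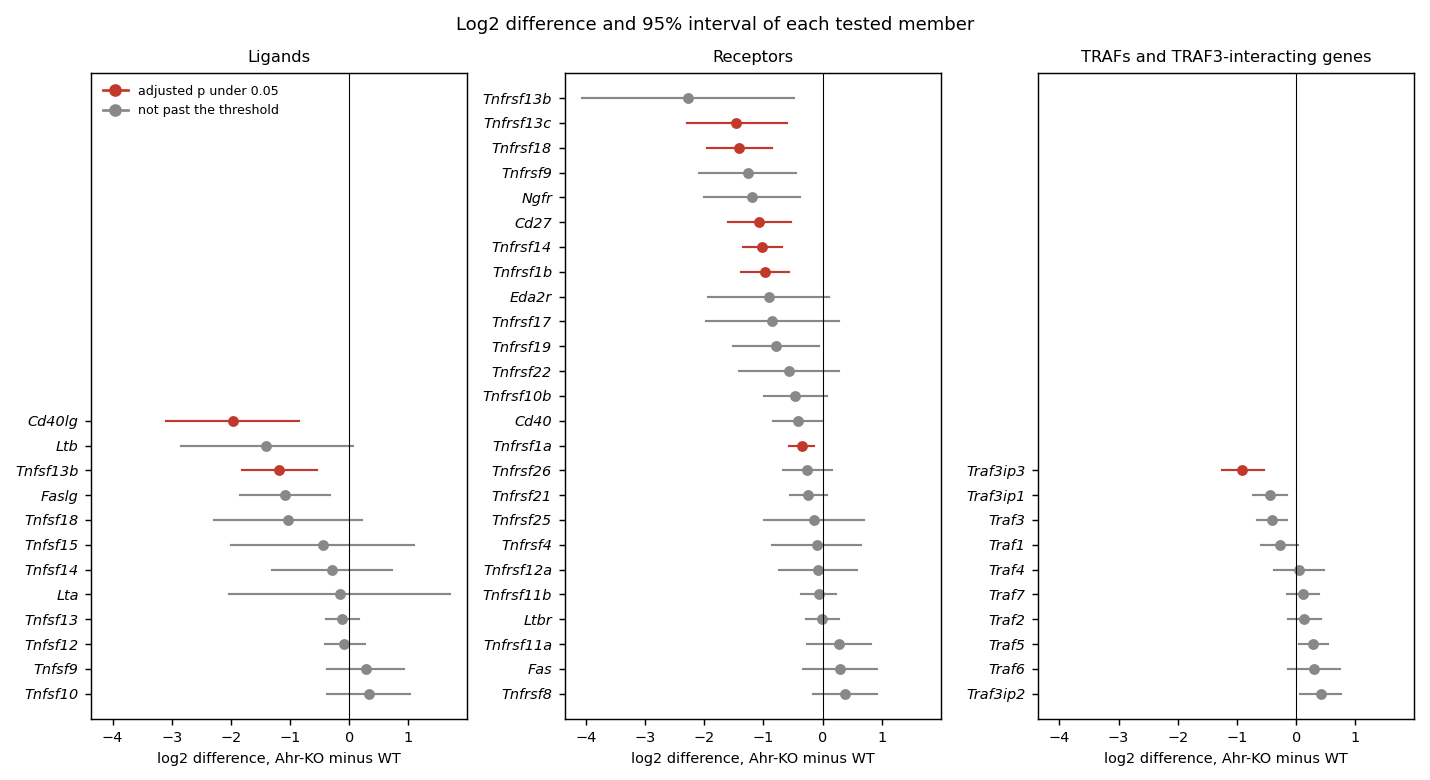
Log2 difference (Ahr-KO minus WT, log2(value + 1) scale) of each of the 47 tested members as a point with its 95% interval, in panels for ligands, receptors and TRAF genes. The 9 members past the threshold are in red and all lie left of 0, and the widest intervals belong to genes with few reads such as Lta and Tnfrsf13b.

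The count of falls depended on single libraries. Of the 47 members 8 fell when Ahr-KO 0 was left out, 2 when Ahr-KO 1 or Ahr-KO 2 was, 1 when WT 0 was, 5 when WT 1 was and 7 when WT 2 was, the last with 1 rise, of Tnfsf10. WT library 0 held the highest of the 6 values in 8 of the 9 members that fell, and in 21 of all 47, while it was highest in 15.5% of all tested genes. Ahr-KO library 1 held the lowest value in 6 of the 9. Since no label ties each sample to an animal of its own, the p-values reflect the spread among these libraries, which may be technical.

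**Figure D2:**
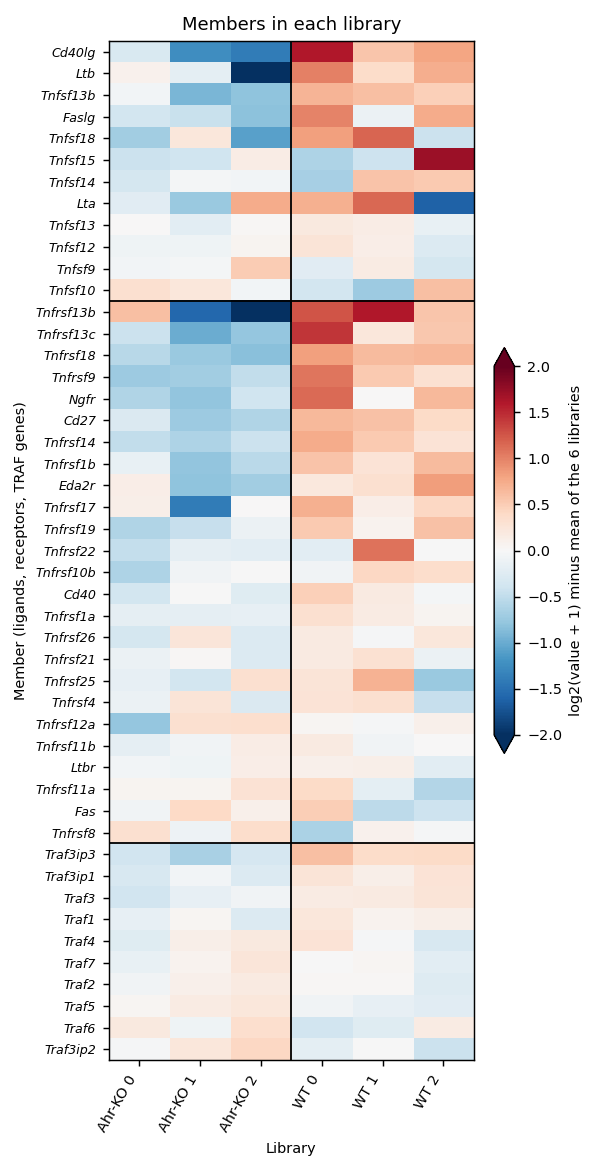
Log2(value + 1) of each member minus its mean over the 6 libraries, with Ahr-KO libraries on the left and WT libraries on the right, and ligands, receptors and TRAF genes from top to bottom, each sorted by the log2 difference. Red is above and blue below the member's mean; most upper rows of the ligands and receptors are blue on the left and red on the right (Tnfrsf13b in Ahr-KO 0 is an exception), whereas most TRAF rows are pale.

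TNF and its receptors are described first. Tnf had too few reads to pass the filter, at 0.806, 0 and 0 in Ahr-KO libraries 0, 1 and 2 and at 4, 4.11 and 0 in WT libraries 0, 1 and 2, which is an estimated 1, 0 and 0 reads in Ahr-KO against 4, 5 and 0 in WT. No difference in Tnf was detectable at this depth. Tnfrsf1a, the death domain receptor that most cells carry and through which soluble TNF acts, fell modestly. It stood at 1846, 1851 and 1878 in Ahr-KO libraries and at 2615, 2358 and 2175 in WT libraries, a difference of -0.35 ± 0.09 (1.28-fold lower, adjusted p = 0.048). The groups did not overlap, and the Ahr-KO values lay within a narrow band.

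Tnfrsf1b, the receptor without a death domain that responds best to membrane-bound TNF and is typical of leukocytes and endothelium, fell further. Its values were 599.6, 385 and 456 in Ahr-KO libraries and 985, 798 and 1023 in WT libraries (480.1 ± 109 in Ahr-KO against 935 ± 120.1 in WT, SD, n = 3 each), a difference of -0.98 ± 0.18 (1.97-fold lower, adjusted p = 0.016). The highest Ahr-KO library was below the lowest WT library. Tnfrsf1b was not called with Ahr-KO 1 left out (adjusted p = 0.052), nor with Ahr-KO 2 (0.072) or WT 0 (0.052) left out. Tnfrsf1a was called with WT 2 left out, but not with Ahr-KO 0 (0.098), Ahr-KO 1 (0.14), Ahr-KO 2 (0.13), WT 0 (0.14) or WT 1 (0.11) left out, nor with robust limma (0.052), no filter (0.051), a pseudocount of 0.1 (0.051) or no trend (0.11). In RefSeq's GRCr8 annotation a further gene, LOC103692519, overlaps both Tnfrsf1b and its neighbour Tnfrsf8, so that reads could have been shared and the levels of both are uncertain.

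Promoter windows, 250 bases before to 50 bases after the annotated start, were taken from RefSeq (build GRCr8), which held 36 of the 47 members and 6 of the 9 that fell. They were searched on both strands for GCGTG, the core of the AHR response element, and for the kappaB consensus bound by NF-kappaB. GCGTG occurred in 1 of the 6 windows of members that fell, in 12 of the 36 member windows (33.3%), in 29.7% of all 33469 windows and in 46.7% of the 11736 windows of tested genes. The kappaB consensus occurred in 0 of those 6 windows, in 8 of the 36 (22.2%), in 7.51% of all windows and in 9.91% of those of tested genes, the 8 being those of Fas, Lta, Ltb, Tnfrsf8, Tnfsf14, Traf3, Traf3ip2 and Traf7. The window of Tnfrsf1b is shown because it was the only one of the 6 with GCGTG, and those of Tnfsf13b and Tnfrsf13c because they belong to a ligand and its receptor that both fell. Capitals mark GCGTG, which starts 87 and 74 bases before the Tnfrsf1b start, and the other windows have no match to either motif. The windows lie at chr5:162387362-162387661 (minus strand) for Tnfrsf1b, chr16:86194450-86194749 (minus strand) for Tnfsf13b and chr7:115618598-115618897 (minus strand) for Tnfrsf13c.
Tnfrsf1b: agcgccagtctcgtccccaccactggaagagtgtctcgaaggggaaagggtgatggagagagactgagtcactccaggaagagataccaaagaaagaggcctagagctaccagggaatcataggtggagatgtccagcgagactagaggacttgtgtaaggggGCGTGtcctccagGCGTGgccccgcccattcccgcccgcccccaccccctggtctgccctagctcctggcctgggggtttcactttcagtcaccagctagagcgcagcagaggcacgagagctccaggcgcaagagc
Tnfsf13b: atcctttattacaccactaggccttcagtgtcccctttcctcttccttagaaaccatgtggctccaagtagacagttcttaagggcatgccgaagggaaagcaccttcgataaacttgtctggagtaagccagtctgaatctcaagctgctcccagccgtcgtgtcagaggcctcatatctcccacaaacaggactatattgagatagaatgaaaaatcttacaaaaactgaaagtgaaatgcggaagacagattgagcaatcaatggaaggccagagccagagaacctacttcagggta
Tnfrsf13c: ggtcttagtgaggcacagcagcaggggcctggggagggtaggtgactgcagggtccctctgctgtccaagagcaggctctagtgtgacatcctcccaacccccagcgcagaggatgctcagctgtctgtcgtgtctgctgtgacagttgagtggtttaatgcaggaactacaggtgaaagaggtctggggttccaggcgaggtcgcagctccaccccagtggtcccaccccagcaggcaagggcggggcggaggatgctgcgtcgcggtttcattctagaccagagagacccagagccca
These matches describe letters in a window of GRCr8 and show no binding.

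Tnfrsf14 (HVEM), which binds the ligand LIGHT (Tnfsf14), lymphotoxin alpha and the inhibitory receptor BTLA, kept its call in every fit that was run. It stood at 277, 254 and 288 in Ahr-KO libraries and at 649, 557 and 469 in WT libraries (273 ± 17.5 in Ahr-KO against 558 ± 90.1 in WT, SD, n = 3 each), a difference of -1.02 ± 0.15 (2.03-fold lower, adjusted p = 0.0083). The groups were well apart, and the fall passed the test in each of 16 other fits, among them those that left out 1 library (adjusted p 0.0060 to 0.041).

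The ligands of Tnfrsf14 and of the lymphotoxin beta receptor were near the limit of detection. Tnfsf14 had 6.45, 8.26 and 8.18 in Ahr-KO libraries and 5, 13.1 and 12.6 in WT libraries (difference -0.29, 95% interval -1.30 to 0.72, adjusted p = 0.72). Lta had 1.61, 0.826 and 4.09 in Ahr-KO libraries and 4, 5.75 and 0 in WT libraries, so that both ligands overlapped between groups. Ltb, the membrane anchor of the lymphotoxin heterotrimer, had 3.22, 2.48 and 0 in Ahr-KO libraries and 7, 4.11 and 5.60 in WT libraries. All 3 Ahr-KO values of Ltb were the lower ones, but at an estimated 0 to 7 reads per library the difference of -1.40 ± 0.63 did not pass (adjusted p = 0.19), and it was -0.75 with Ahr-KO 2 left out and -2.54 with a pseudocount of 0.1. For Lta it was -0.16 ± 0.81, and 0.49 with that pseudocount. Ltbr, the receptor that stromal and epithelial cells carry, stood at 3196, 3119.8 and 3649 in Ahr-KO libraries and at 3561, 3618 and 2855 in WT libraries, which differed by -0.01 (95% interval -0.28 to 0.27, adjusted p = 0.98). Its groups overlapped, and so did those of Tnfrsf25 (DR3), another receptor with a death domain, with a difference of -0.14 ± 0.37 (adjusted p = 0.83).

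BAFF (Tnfsf13b) is the cytokine that keeps mature B cells alive through its receptor BAFF-R (Tnfrsf13c), and both genes fell. Tnfsf13b had 58.0, 31.4 and 34.1 in Ahr-KO libraries and 97.0, 92.0 and 83.9 in WT libraries (difference -1.18 ± 0.27, 2.26-fold lower, adjusted p = 0.034). Tnfrsf13c had 21.0, 14.0 and 16.4 in Ahr-KO libraries and 79.0, 33.7 and 42.0 in WT libraries (difference -1.46 ± 0.37, 2.75-fold lower, adjusted p = 0.043). Neither gene overlapped between groups, although WT library 0 alone stood at 79.0 for Tnfrsf13c. The other receptors of BAFF, which also bind APRIL, were low in reads. TACI (Tnfrsf13b) had 7.25, 0.826 and 0 in Ahr-KO libraries and 12, 15.6 and 6.99 in WT libraries, which overlapped between Ahr-KO library 0 and WT library 2 (difference -2.28 ± 0.78, adjusted p = 0.10).

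BCMA (Tnfrsf17), the receptor of plasma cells, had 8.87, 2.48 and 8.18 in Ahr-KO libraries and 14.0, 9.03 and 11.2 in WT libraries. Its groups were narrowly apart, and the difference did not pass (adjusted p = 0.30). APRIL itself (Tnfsf13) had 1323, 1141 and 1341 in Ahr-KO libraries and 1514, 1459 and 1185 in WT libraries, which differed by -0.12 (95% interval -0.40 to 0.16, adjusted p = 0.55). The groups of APRIL overlapped, and it lies beside Tnfsf12 with an annotated gene across both, which leaves the levels of these neighbours uncertain. Tnfsf13b was not called with Ahr-KO 1 (adjusted p = 0.11), Ahr-KO 2 (0.12), WT 0 (0.098) or WT 1 (0.090) left out, after quantile normalisation (0.066) or without the trend (0.051). Tnfrsf13c was not called with any 1 of the 6 libraries left out (adjusted p 0.051 to 0.13), after quantile normalisation (0.091), without the trend (0.063), in limma-voom (0.051) or with no filter (0.051). Tnfrsf13b was past the threshold with Ahr-KO 0 left out (difference -3.15, adjusted p = 0.023), whereas with Ahr-KO 2 left out the difference was -1.63 (0.27) and with a pseudocount of 0.1 it was -3.65 (0.15).

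**Figure D3:**
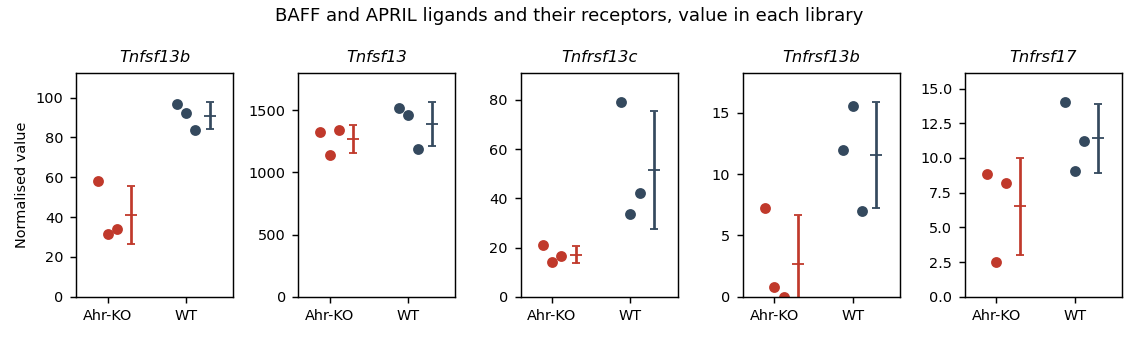
Normalised value (linear axis from 0) of the ligands BAFF (Tnfsf13b) and APRIL (Tnfsf13) and of the receptors Tnfrsf13c, Tnfrsf13b and Tnfrsf17 in each library, Ahr-KO in red and WT in dark blue. Points are libraries 0, 1 and 2 from left to right, and the bar beside them is the mean ± SD (n = 3), cut at 0 for Tnfrsf13b. The groups are apart for Tnfsf13b and Tnfrsf13c, narrowly so for Tnfrsf17, and overlap for Tnfsf13 and Tnfrsf13b.

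Among the co-stimulatory genes of lymphocytes, Cd40lg, Cd27 and Tnfrsf18 fell, while the partners of Cd40lg and Tnfrsf18 did not pass the test and that of Cd27 was below the filter. CD40 ligand (Cd40lg), by which activated helper T cells license B cells and dendritic cells, had 4.03, 1.65 and 1.36 in Ahr-KO libraries and 18.0, 8.21 and 9.79 in WT libraries (difference -1.97 ± 0.49, 3.91-fold lower, adjusted p = 0.042). That is an estimated 5, 2 and 1 reads in Ahr-KO against 18, 10 and 7 in WT, and the groups did not overlap. Its receptor Cd40 had 149.9, 193 and 165 in Ahr-KO libraries and 272, 220.1 and 190.2 in WT libraries, where the highest Ahr-KO value was just above the lowest WT value (difference -0.42 ± 0.18, adjusted p = 0.18).

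Cd27, a receptor of T, B and NK cells that sustains memory, had 39.5, 28.9 and 31.4 in Ahr-KO libraries and 76.0, 73.1 and 62.9 in WT libraries (33.3 ± 5.53 in Ahr-KO against 70.7 ± 6.84 in WT, SD, n = 3 each). The groups were apart (difference -1.07 ± 0.23, 2.10-fold lower, adjusted p = 0.026). An annotated long non-coding RNA overlaps Cd27, and reads of the pair could have been shared. The CD27 ligand gene Cd70 was listed at 0 in 5 libraries and held 1 read in WT library 0. GITR (Tnfrsf18), a co-stimulatory receptor high on regulatory and activated T cells, had 21.8, 19.0 and 17.7 in Ahr-KO libraries and 58.0, 50.9 and 51.8 in WT libraries (difference -1.41 ± 0.24, 2.67-fold lower, adjusted p = 0.013). Each group of Tnfrsf18 was tight and they were far apart, whereas its ligand Tnfsf18 overlapped, with 5.64, 11.6 and 4.09 in Ahr-KO libraries and 18.0, 23.0 and 6.99 in WT libraries (adjusted p = 0.26).

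Tnfrsf18 was not called with Ahr-KO 2 left out (adjusted p = 0.056) or WT 0 left out (0.0502). Cd27 was not called with Ahr-KO 1 (0.089), Ahr-KO 2 (0.093), WT 0 (0.087) or WT 1 (0.081) left out, or after quantile normalisation (0.065). Cd40lg was called with Ahr-KO 0 left out, but not with Ahr-KO 1 (0.12), Ahr-KO 2 (0.13), WT 0 (0.13), WT 1 (0.076) or WT 2 (0.062) left out, nor after quantile normalisation (0.062) or with a pseudocount of 0.1 (0.056).

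**Figure D4:**
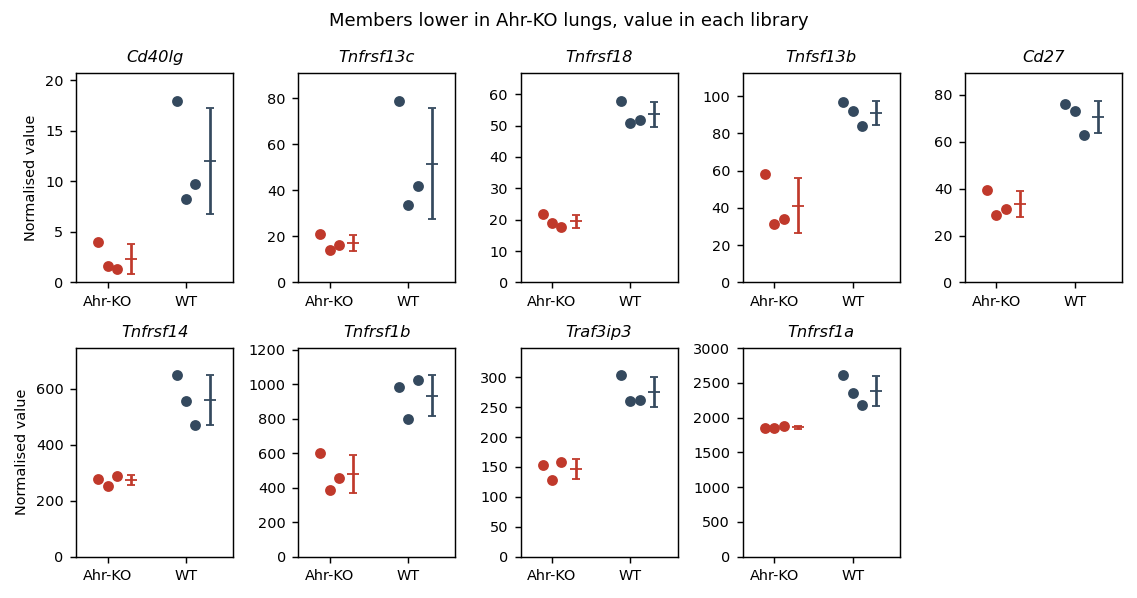
Normalised value (linear axis from 0, its own scale in each panel) of the 9 members that fell, in each library, Ahr-KO in red on the left and WT in dark blue on the right. Points are libraries 0, 1 and 2 from left to right with the mean ± SD (n = 3) beside them. In each panel the 3 Ahr-KO points lie below the 3 WT points, closest together in proportion for Tnfrsf1a.

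The remaining co-stimulatory receptors did not pass the test. 4-1BB (Tnfrsf9), which activated cytotoxic T and NK cells carry, had 5.64, 5.79 and 6.82 in Ahr-KO libraries and 22.0, 14.8 and 12.6 in WT libraries, without overlap (difference -1.27 ± 0.35, adjusted p = 0.059). It was past the threshold with equal library totals (adjusted p = 0.048) and without the trend (0.034). Its ligand Tnfsf9 overlapped between groups (difference 0.28 ± 0.28, adjusted p = 0.57). OX40 (Tnfrsf4) had 23.4, 30.6 and 20.5 in Ahr-KO libraries and 31.0, 32.0 and 18.2 in WT libraries (adjusted p = 0.88). CD30 (Tnfrsf8) had 196, 147 and 201 in Ahr-KO libraries and 101, 168 and 155 in WT libraries (difference 0.37 ± 0.24, adjusted p = 0.35). The groups of OX40 and of CD30 overlapped. Their ligands were below the filter, since Tnfsf4 held a value only in Ahr-KO library 1 (3.31), and Tnfsf8 reached a value of at least 1 only in Ahr-KO library 1 (1.65) and WT library 2 (8.39). Tnfsf11, which encodes RANKL, was listed at 0 in all 6 libraries, and just above the filter stood Lta, Ltb and Tnfrsf13b, given above.

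Fas ligand and the death receptors gave a mixed picture. Faslg, by which cytotoxic T and NK cells kill, had 35.5, 33.9 and 25.9 in Ahr-KO libraries and 93.0, 42.7 and 78.3 in WT libraries. Although the groups did not overlap, the spread in WT was wide (difference -1.08 ± 0.33, adjusted p = 0.075), and the difference passed only without WT library 1 (-1.41, adjusted p = 0.037). Its receptor Fas had 290.1, 402 and 327 in Ahr-KO libraries and 428, 211 and 228 in WT libraries, which overlapped (difference 0.30 ± 0.27, adjusted p = 0.52). TRAIL (Tnfsf10), another death ligand, had 1713, 1618 and 1320.5 in Ahr-KO libraries and 1069.6, 831 and 2082 in WT libraries (difference 0.33 ± 0.30, adjusted p = 0.53). WT library 2 held the highest value of TRAIL and WT library 1 the lowest, and without WT library 2 the difference was 0.71 (adjusted p = 0.030). The TRAIL receptor gene Tnfrsf10b had 83.8, 123 and 128 in Ahr-KO libraries and 122, 172 and 165 in WT libraries, overlapping slightly (difference -0.46 ± 0.23, adjusted p = 0.24), and its level is uncertain because Rhobtb2 overlaps it. Among the 6 receptors that carry a death domain, Tnfrsf1a, Fas, Tnfrsf10b, Tnfrsf21, Tnfrsf25 and Ngfr, the fall of Tnfrsf1a was the 1 call.

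Receptors better known from bone, epithelium, nerve and stroma made up the rest. Ngfr, the p75 neurotrophin receptor of nerve and some stromal cells, had 15.3, 13.2 and 17.7 in Ahr-KO libraries and 53.0, 23.8 and 37.8 in WT libraries. Its groups did not overlap and the WT values were uneven (difference -1.19 ± 0.35, adjusted p = 0.067). Tnfrsf19 (TROY), at 10.5 to 15.0 in Ahr-KO libraries and 17.2 to 25.2 in WT libraries, and Eda2r, at 2.48 to 5.64 in Ahr-KO libraries and 6 to 9.79 in WT libraries, also did not overlap and did not pass (adjusted p = 0.15 and 0.22). The RANKL receptor gene Tnfrsf11a (difference 0.27 ± 0.24) and its soluble decoy osteoprotegerin, Tnfrsf11b (-0.07 ± 0.13), overlapped between groups (adjusted p = 0.50 and 0.77).

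TWEAK (Tnfsf12) and its receptor Fn14 (Tnfrsf12a), a pair known from injured epithelium and vessels, overlapped as well (adjusted p = 0.77 and 0.89), with Fn14 at 157, 336 and 338 in Ahr-KO libraries and 276, 265 and 288 in WT libraries. One Ahr-KO library was therefore far below the others for Fn14, and without Ahr-KO library 0 its difference was 0.29 in place of -0.08. Tnfrsf21 (DR6), Tnfrsf22, Tnfrsf26 and the DR3 ligand gene Tnfsf15 did not pass either (differences -0.25, -0.57, -0.26 and -0.45, adjusted p 0.28 to 0.71). Tnfrsf22 and Tnfrsf26 are close relatives and neighbours, so that reads could have been shared, which was not tested.

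None of the 7 TRAF genes passed the limma-trend test, although 1 was lower and 1 higher at an unadjusted p under 0.05 and limma-voom called 1 lower. The gene called by limma-voom was Traf3, the adaptor that holds the kinase NIK in check. It stood at 568, 661 and 707 in Ahr-KO libraries and at 829, 843 and 887 in WT libraries without overlap (difference -0.41 ± 0.11, adjusted p = 0.054, and 0.024 in limma-voom and 0.026 with equal library totals). Traf5 was the 1 member with all Ahr-KO values above WT, at 525, 572 and 599 in Ahr-KO libraries and 488, 457 and 438 in WT libraries (difference 0.29 ± 0.11, adjusted p = 0.12). Traf1, which NF-kappaB induces, had 243, 280.2 and 226 in Ahr-KO libraries and 319.9, 287 and 298 in WT libraries, with the groups close but apart (difference -0.27 ± 0.14, adjusted p = 0.23). Traf2, Traf4, Traf6 and Traf7 overlapped between groups, with differences of 0.14, 0.05, 0.30 and 0.12 (adjusted p 0.34 to 0.88).

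The 3 genes named for TRAF3 differ in what they encode. Traf3ip3, a membrane protein of lymphocytes, had 154, 128 and 159 in Ahr-KO libraries and 304, 259.9 and 262 in WT libraries, clearly apart (difference -0.91 ± 0.15, 1.87-fold lower, adjusted p = 0.013). With Ahr-KO 1 left out its adjusted p was 0.052, and with WT 0 left out it was 0.0504. Another annotated gene, C13h1orf74, overlaps Traf3ip3 in GRCr8, so that reads could have been shared and its level is uncertain. Traf3ip1, a part of the intraflagellar transport machinery of cilia, had 297, 359 and 308 in Ahr-KO libraries and 448, 405 and 452 in WT libraries (difference -0.44 ± 0.12, adjusted p = 0.062, and 0.038 in limma-voom and 0.036 with equal library totals). Traf3ip2 (Act1), the adaptor of the interleukin 17 receptor, had 954, 1139 and 1301 in Ahr-KO libraries and 851, 966 and 725 in WT libraries. Its groups overlapped only between the lowest Ahr-KO and the highest WT library (difference 0.42 ± 0.15, adjusted p = 0.12).

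Genes of the pathway were also followed in 7 lists, which held 88 tested genes when each is counted once. The members Traf3ip2 and Traf3ip3 were among them. Of the 88 genes 16 fell (18.2%) and 2 rose, with a median difference of -0.14. Over all tested genes 6.26% fell and 4.50% rose. Without the members, 15 of 86 list genes fell and 2 rose. Of 22 genes known to be induced by TNF through classical NF-kappaB, 7 fell and none rose (median -0.50; 11 lower and 0 higher at an unadjusted p under 0.05, and 0 higher in limma-voom). E-selectin (Sele), by which activated endothelium catches leukocytes, had 16.9, 43.0 and 21.8 in Ahr-KO libraries and 197, 154 and 225 in WT libraries (difference -2.87 ± 0.35, 7.29-fold lower, adjusted p = 0.0054). Birc3, the ubiquitin ligase cIAP2 that binds TRAF2, had 179, 177 and 168 in Ahr-KO libraries and 368, 354 and 485 in WT libraries (difference -1.19 ± 0.16, 2.28-fold lower, adjusted p = 0.0062). Both were far apart between groups, as were the adhesion molecule gene Vcam1 (2.32-fold lower, adjusted p = 0.0083) and the mitochondrial superoxide dismutase gene Sod2 (1.46-fold lower, adjusted p = 0.0096). All 4 stayed past the threshold whichever library was left out.

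The lymphotoxin receptor's alternative NF-kappaB branch was followed in 13 tested genes. They are lymphoid tissue genes known to depend on it and the signalling genes Map3k14, Relb and Nfkb2. Of the 13 genes 6 fell (46.2%) and none rose, against 6.26% lower and 4.50% higher over all tested genes. Their median difference was -0.93, with 8 lower and 0 higher at an unadjusted p under 0.05 and 0 higher in limma-voom. All 6 came from the lymphoid tissue part of the list, among them Vcam1, which is also on the list of TNF-induced genes. The 3 signalling genes were not called (adjusted p 0.087 to 0.84). Cxcl13, the chemokine of B cell follicles, had 37.1, 6.61 and 20.5 in Ahr-KO libraries and 241, 166 and 138 in WT libraries (difference -3.27 ± 0.55, adjusted p = 0.013), apart in all libraries. With Ahr-KO 2 left out Cxcl13 was not called (adjusted p = 0.057), and with Ahr-KO 1 left out the difference was -2.64. The list shares Vcam1 and Icam1 with the one before, of which Icam1 was not called (difference 0.32 ± 0.16, adjusted p = 0.23), and its genes Ccl21 and Cxcl12 fell 3.33-fold and 1.91-fold (adjusted p = 0.0096 and 0.0060), Ccl21 not being called with Ahr-KO 2 left out (0.051). The values of Ltbr are given above.

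The signalling core came next. Its counts stand beside shares of 6.26% lower and 4.50% higher over all tested genes. Of 23 adaptors, ubiquitin enzymes and kinases, 2 fell (8.70%, Birc3 and Traf3ip3) and 1 rose. The riser was Rnf31, the catalytic subunit of the linear ubiquitin ligase, at 1047, 1049.6 and 1127 in Ahr-KO libraries and 853, 861 and 846 in WT libraries (1.26-fold, adjusted p = 0.046). Of 10 NF-kappaB subunits and inhibitors, 1 fell, the inhibitor gene Nfkbie (222 ± 5.42 in Ahr-KO against 357 ± 64.0 in WT, SD, n = 3 each, 1.59-fold lower, adjusted p = 0.036). Of 15 genes of apoptosis and necroptosis, 2 fell (13.3%) and none rose (4 lower and 0 higher at an unadjusted p under 0.05, and 0 higher in limma-voom). One that fell was Zbp1, a nucleic acid sensor (2.38-fold lower, adjusted p = 0.030).

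Of 7 genes of ligand and receptor cleavage 1 rose and 0 fell, against 4.50% and 6.26% over all tested genes. The gene that rose was Timp3, the inhibitor of the TNF-releasing protease ADAM17, at 19365, 13726 and 13979.8 in Ahr-KO libraries and 3997, 5720.0 and 8946 in WT libraries (difference 1.39 ± 0.28, 2.63-fold higher, adjusted p = 0.020). Family genes under further symbols (Eda, Edar, Edaradd, Relt, Rell1 and Rell2) gave 0 of 6 calls, with 2 lower at an unadjusted p under 0.05 and 1 lower in limma-voom. Timp3 was not called with Ahr-KO 1 (adjusted p = 0.057), Ahr-KO 2 (0.074) or WT 1 (0.057) left out or without the trend (0.063). Rnf31 was not called with any 1 library left out (highest adjusted p = 0.14). Nfkbie kept its call only with WT 2 left out (highest 0.12) and Zbp1 only with WT 1 or WT 2 left out (highest 0.097). Rnf31 was also not called after quantile normalisation (0.068), with equal library totals (0.11), in limma-voom (0.11) or without the trend (0.086). Quantile normalisation ended the calls of Zbp1 (0.071) and Nfkbie (0.055), and leaving out the trend that of Nfkbie (0.062).

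**Figure D5:**
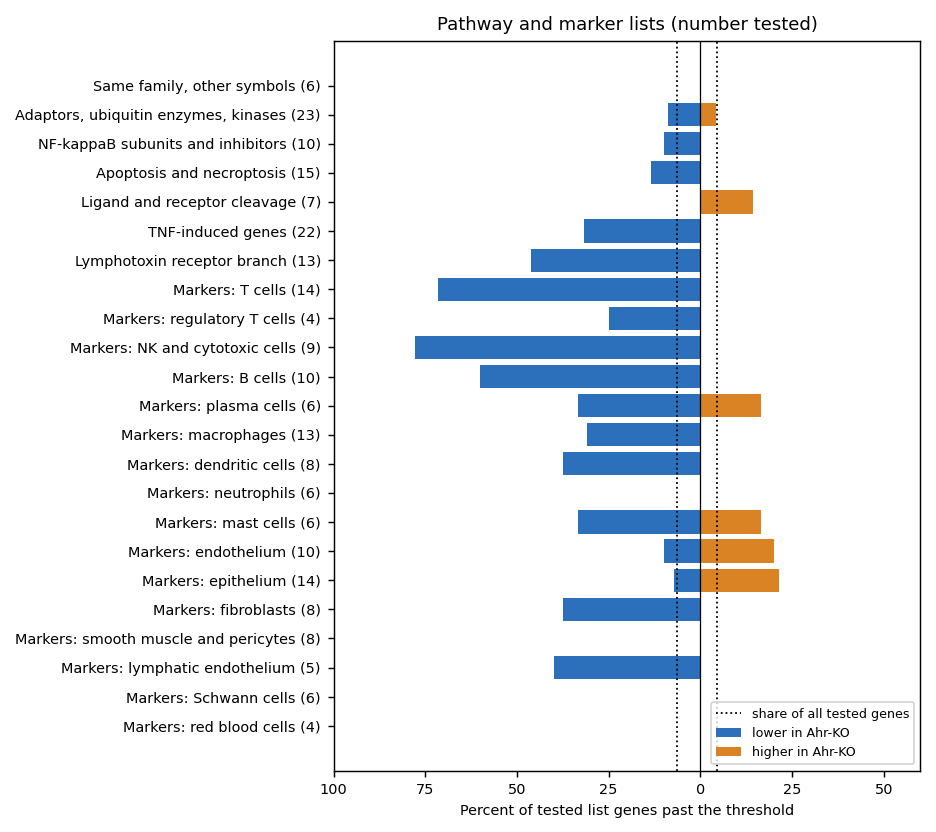
Percent of the tested genes of each pathway or marker list that were lower (blue, leftwards) or higher (orange, rightwards) in Ahr-KO lungs, with the number tested in brackets. Dotted lines mark the shares over all tested genes, 6.26% lower and 4.50% higher; T cell, NK cell and B cell markers reach farthest left.

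Many members are carried by cells whose markers also moved. Of 14 T cell markers 10 fell, of 9 tested NK and cytotoxic markers 7 and of 10 B cell markers 6, with none higher. The shares over all tested genes were 6.26% lower and 4.50% higher. In each list 0 were higher in limma-voom and 0 were higher at an unadjusted p under 0.05. Summed over each list, T cell markers ran from 1103 to 1382 in Ahr-KO libraries and from 2332 to 3062 in WT libraries, NK and cytotoxic markers from 1098 to 1519 in Ahr-KO libraries and from 2637 to 3166 in WT libraries, and B cell markers from 1145 to 1435 in Ahr-KO libraries and from 1862 to 2635 in WT libraries. None of these sums overlapped, and they lay in the same direction as Cd27, Tnfrsf18, Cd40lg, Faslg, Tnfrsf13c and Traf3ip3. Of these genes, Faslg was not called (adjusted p = 0.075), and neither were some other members carried by lymphocytes. Of the remaining co-stimulatory receptors, Tnfrsf9 was lower but not called (difference -1.27, adjusted p = 0.059). Tnfrsf4 (-0.10) and Tnfrsf8 (0.37) overlapped between groups (adjusted p = 0.88 and 0.35). In bulk lung, fewer cells of a type and less RNA per cell cannot be told apart, and the part of cell numbers in the values of these members was not tested.

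The counts of the further marker lists also stand beside shares of 6.26% lower and 4.50% higher over all tested genes. Of 4 regulatory T cell markers 1 fell, Il2ra, at 16.1, 14.0 and 15.0 in Ahr-KO libraries and 40.0, 36.1 and 37.8 in WT libraries (adjusted p = 0.020). The sums of the list were 51.2 to 63.0 in Ahr-KO libraries and 69.0 to 87.5 in WT libraries, and the gap between them rests on Il2ra. The defining marker Foxp3 had 27.8, 38.2 and 27.4 in Ahr-KO libraries and 23.0, 24.8 and 24.5 in WT libraries, all Ahr-KO values being above the WT values, opposite to Tnfrsf18 (difference 0.34 ± 0.26, adjusted p = 0.44). Ctla4 and Ikzf2 overlapped between groups. Macrophage markers fell in 4 of 13 tested, with sums of 320186 to 413093 in Ahr-KO libraries and 413137 to 522477 in WT libraries that consist mostly of Lyz2, whose groups overlapped (adjusted p = 0.54), and Marco was listed at 0 in all libraries. Dendritic cell markers fell in 3 of 8 and their sums overlapped (1653 to 2346 in Ahr-KO libraries, 2060.3 to 2395 in WT libraries). Plasma cell markers fell in 2 of 6 and rose in 1. Mast cell markers fell in 2 of 6 and rose in 1, fibroblast markers fell in 3 of 8 and lymphatic markers in 2 of 5. The lymphatic sums were nevertheless higher in Ahr-KO libraries (20480.0 to 24295) than in WT libraries (16751 to 20012). They consist mostly of Pdpn and Lyve1, which were not called (adjusted p = 0.10 and 0.71). Endothelial markers rose in 2 of 10 and fell in 1 (sums 100361 to 111914 in Ahr-KO libraries, 79407 to 89551 in WT libraries). Epithelial markers rose in 3 of 14 and fell in 1 (sums 913875 to 980970.2 in Ahr-KO libraries, 752796 to 765185 in WT libraries), and these markers of lung were high in both groups. The epithelial sums consist mostly of Sftpc, Scgb1a1, Sftpa1 and Sftpb, none of which was called (adjusted p = 0.36, 0.93, 0.25 and 0.054). Neutrophil, smooth muscle, Schwann cell and red blood cell markers gave no call in limma-trend, with 0, 0, 2 and 3 lower and 0, 4, 1 and 0 higher at an unadjusted p under 0.05 and 0, 0, 1 and 0 lower in limma-voom, which called none higher. The Schwann cell sums, 442 to 492 in Ahr-KO libraries and 496 to 664 in WT libraries, lay in the same direction as Ngfr, and their part in its values was not tested.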

How the data were processed

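The authors deposited 1 table of normalised gene values (a signal that is never negative) for 3 Ahr-KO and 3 WT lung libraries. Per the submitters' processing notes the build was rn6 and FastQC was used; aligner, counter, annotation and strandedness: not given in the sources used here. With the highest values left out, between 97.9% and 98.1% of the values above 0 lay within 0.05 of a whole multiple of 1 step per library. Depth was therefore estimated as total over step. Columns were assigned to groups by genotype, since their numbers start at 0 and the titles' at 1. There were 0 value columns left unused.

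The test took the 15386 genes that reached 1 in 3 libraries or more, on log2(value + 1), by limma 3.58.1 in R 4.3.3, modelling genotype alone with a trend of variance on mean, 2-sided, Benjamini-Hochberg over all tested genes, threshold 0.05. The count test planned for raw counts did not apply to these values. An exact permutation test of 3 against 3 cannot go below 0.1. Members and lists were chosen with earlier results of these data known. Members past the threshold, and those paired with them as ligand or receptor, are given library by library; up to 4 genes with the lowest p are named per pathway list, except 1 that is not reported here. Alternatives were other scalings, variance models, filters and pseudocounts, the library number as a block, and each library left out; the fit without both libraries numbered 2 was chosen after seeing the data. The code was tested on simulated data.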

Additional observations from a re-analysis of the deposited data

How the results depend on the processing

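The number of members called was 9 and stood at 5 after quantile normalisation and with the library number as a block, 14 at an adjusted p under 0.10, and 2 without both libraries numbered 2 (Tnfrsf14 lower, Tnfsf10 higher). Between 1 and 8 were called in the fits that left out 1 library. Ligand calls, 2 in the reported fit, were 0 after quantile normalisation and with the block, 1 without the trend, with a stricter filter, with a pseudocount of 0.1 and without both libraries numbered 2, and 0 to 2 with 1 library left out. Receptor calls were 6, with 1 without both libraries numbered 2 and 1 to 5 with 1 library left out. TRAF and TRAF3-interacting calls, 1 in the reported fit, were 3 with equal library totals, in limma-voom and at an adjusted p under 0.10, 0 with a fold of at least 2 and without both libraries numbered 2, and 0 to 1 with 1 library left out. Pathway list calls were 18, with 11 under the block, 28 at an adjusted p under 0.10, 11 with a fold of at least 2, 8 without both libraries numbered 2 and 8 to 17 with 1 library left out. Calls over all genes were 1655, with 952 without the trend, 899 under the block, 2853 at an adjusted p under 0.10, 676 with a fold of at least 2, 553 without both libraries numbered 2 and 407 to 1834 with 1 library left out. Causes of these changes were not tested.

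Same-numbered libraries did not deviate together (correlations of -0.1, 0.069 and -0.074 for numbers 0, 1 and 2), so the block pairs samples by number only. The median difference of all tested genes was 0.01 in the reported fit, 0.03 after quantile normalisation and -0.08 with equal totals and in limma-voom. Signs turned only in members that the reported fit did not call. With the block, adjusted p was 0.062 for Cd27, 0.056 for Cd40lg, 0.10 for Tnfrsf1a and 0.057 for Tnfsf13b among members called in the reported fit, and 0.077 for Nfkbie, 0.12 for Rnf31, 0.054 for Zbp1 and 0.051 for Timp3 among the pathway genes named. Lta was 0.03 after quantile normalisation and 0.49 with a pseudocount of 0.1. Tnfrsf25 was 0.02 and Tnfrsf4 0.23 after quantile normalisation. Traf4 was -0.04 with equal totals, -0.07 in limma-voom and -0.18 without both libraries numbered 2. That last fit also turned Tnfrsf11a (-0.03), Tnfsf15 (0.10), Tnfsf9 (-0.02), Traf2 (-0.01) and Traf7 (-0.05). With 1 library left out the differences ran as follows: Lta -1.0 to 0.37, Ltbr -0.12 to 0.06, Tnfrsf11b -0.16 to 0.01, Tnfrsf12a -0.27 to 0.29, Tnfrsf25 -0.55 to 0.17, Tnfrsf4 -0.35 to 0.04, Tnfsf12 -0.23 to 0.04, Tnfsf15 -0.88 to 0.28, Traf4 -0.10 to 0.20. Depth limits the 10 tested members with fewer than 10 estimated reads in some library (Cd40lg, Eda2r, Lta, Ltb, Tnfrsf13b, Tnfrsf17, Tnfrsf9, Tnfsf14, Tnfsf15 and Tnfsf18) and the 5 below the filter. Without both libraries numbered 2, Lta was -1.41, Ltb -0.74 and Tnfrsf25 -0.74.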
